A study of Mus musculus with 93 samples.

Results

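Collagen genes were examined in RNA-seq libraries of cardiac progenitor cells (CPCs) from mouse embryos and from embryonic stem cell (ESC) spheroids. A gene was taken as a collagen gene when its symbol was Col, a number, the letter a and a number, which gave 44 of the 24514 symbols in the count table. All 44 genes had at least 1 read in some library. Each library was made from 10 sorted cells of 1 well of a single plate. In all 4 groups the cells carried Hcn4-GFP, Tbx1-Cre and the Ai9 reporter. GFP reports Hcn4 expression in cells of the first heart field, the early crescent that forms the left ventricle. RFP permanently marks cells in which Tbx1-Cre was once active and their progeny, cells of the second heart field and pharyngeal mesoderm, so it need not report Tbx1 at the time of sorting. In vivo cells came from dissected embryos, which the protocol dates to E7.75 and the sample titles to E8.5. In vitro cells came from spheroids of an ESC line carrying the same alleles after 5.5 days of differentiation with Activin A, Bmp4 or Wnt proteins. The analysis held 5 in vivo GFP+, 4 in vivo RFP+, 37 in vitro GFP+ and 43 in vitro RFP+ libraries. Nothing ties a well to an embryo, a litter or a differentiation, so n counts wells, and every p-value measures the spread between wells.

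Collagens are secreted or membrane-bound proteins in which 3 chains wind into a triple helix. Fibrillar collagens such as types I, II, III and V form tissue fibrils, type IV forms the network of basement membranes, FACIT collagens (fibril-associated collagens with interrupted triple helices) bind to fibrils, and multiplexins such as type XVIII sit in basement membranes. The early heart tube is lined by a basement membrane and filled with a matrix called cardiac jelly. Chains are hydroxylated and folded in the endoplasmic reticulum, then trimmed and cross-linked outside the cell.

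The Col4a1 and Col4a2 genes encode the chains of the common type IV heterotrimer and lie head to head, so their promoter is shared. It is shown because both transcripts were higher in RFP+ cells in vitro, by nearly the same factor. In GRCm38.p6, the assembly of mm10, Col4a1 starts at position 11312826 of the minus strand and Col4a2 at 11312805 of the plus strand of chromosome 8, so their first exons overlap by 22 bases. The overlap is in capitals in the plus strand at chr8:11312801-11312830, from RefSeq.
Col4a1/Col4a2: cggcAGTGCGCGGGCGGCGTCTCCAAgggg
The next pair of sequences is the 150 bases before the start of Col23a1, the collagen gene most in excess in RFP+ cells in vitro, and of Col3a1, one of 3 in excess in GFP+ cells in vitro. They are at chr11:51289770-51289919 and chr1:45311388-45311537, both on the plus strand. Capitals mark matches to the TATA box TATAAA, to the promoter element CCAAT or to the GC box GGGCGG, each of them searched on both strands.
Col23a1: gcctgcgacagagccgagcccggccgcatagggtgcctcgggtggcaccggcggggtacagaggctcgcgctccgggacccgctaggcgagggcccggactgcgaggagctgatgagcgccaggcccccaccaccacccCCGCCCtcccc
Col3a1: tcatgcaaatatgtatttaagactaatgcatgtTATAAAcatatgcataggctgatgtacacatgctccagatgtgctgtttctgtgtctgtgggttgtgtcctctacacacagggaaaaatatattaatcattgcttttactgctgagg
The Col23a1 stretch was 76.7% G and C and held 1 GC box on the other strand, which begins 11 bases before the start. The Col3a1 stretch was 37.3% G and C and held 1 TATA box, which begins 117 bases before the start. Of 32851 RefSeq windows of the same length, 28.6% held the GC box, 24.5% held the CCAAT element and 7.6% held the TATA box. RefSeq promoter windows were found for 35 of the 44 genes, and not for Col1a1, Col2a1, Col14a1, Col26a1 or Col5a2, which appear below.

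Libraries held from 540597 to 5658882 counted reads. From 6189 to 8302 genes were detected in the in vivo GFP+ libraries, against 10263 to 13052 in the in vivo RFP+ libraries. The markers of other cell types differed between groups too. The summed level of 10 cardiomyocyte markers ranged from 17184 to 50728 CPM (reads scaled to the size of the library) in vivo in GFP+ cells and from 1164 to 2223 CPM in RFP+ cells, but from 19.8 to 1275 CPM in GFP+ and 13.8 to 136 CPM in RFP+ cells in vitro. The medians in vitro were 53.9 CPM in GFP+ and 59.6 CPM in RFP+ cells, and all 10 cardiomyocyte markers had reads in each group. The in vitro GFP+ cells had 1866 to 6568 CPM of 8 surface ectoderm markers, nearly all of it the keratins Krt8 and Krt18, and 100.4 to 1643 CPM of 8 pluripotency markers. Those sums ranged from 63.6 to 1089 and from 14.5 to 571 CPM in the in vitro RFP+ cells. Krt14 had no read in the in vitro GFP+ libraries, and all 8 pluripotency markers had reads in both in vitro groups.

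Collagen transcripts made up a small share of each library. Their summed level was 548 ± 272 CPM (SD, n = 5) in GFP+ and 790 ± 50.4 CPM (SD, n = 4) in RFP+ cells in vivo, and 194 ± 49.9 CPM (SD, n = 37) in GFP+ and 410 ± 51.9 CPM (SD, n = 43) in RFP+ cells in vitro. These values are sums over the 44 genes and depend most on the few abundant ones. Fibrillar collagens made up 42.7% and 36.6% of the collagen CPM in GFP+ and RFP+ cells in vivo, and 45.7% and 32.2% in vitro. The 6 type IV genes, the basement membrane class, had 123 ± 82.4 CPM (SD, n = 5) in GFP+ and 217 ± 43.5 CPM (SD, n = 4) in RFP+ cells in vivo. In vitro they had 28.2 ± 10.3 CPM (SD, n = 37) and 102 ± 21.2 CPM (SD, n = 43). The 4 transmembrane collagens ranked differently: they took 24.4% of the collagen CPM in RFP+ cells in vitro but from 4.79% to 7.70% in the other 3 groups. The multiplexins had their highest sum in RFP+ cells in vivo, at 158 ± 49.3 CPM (SD, n = 4), and from 30.5 to 49.1 CPM on average in the other groups. Anchoring fibril and short-chain network collagens stayed under 3 CPM on average in every group.

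**Figure D1:**
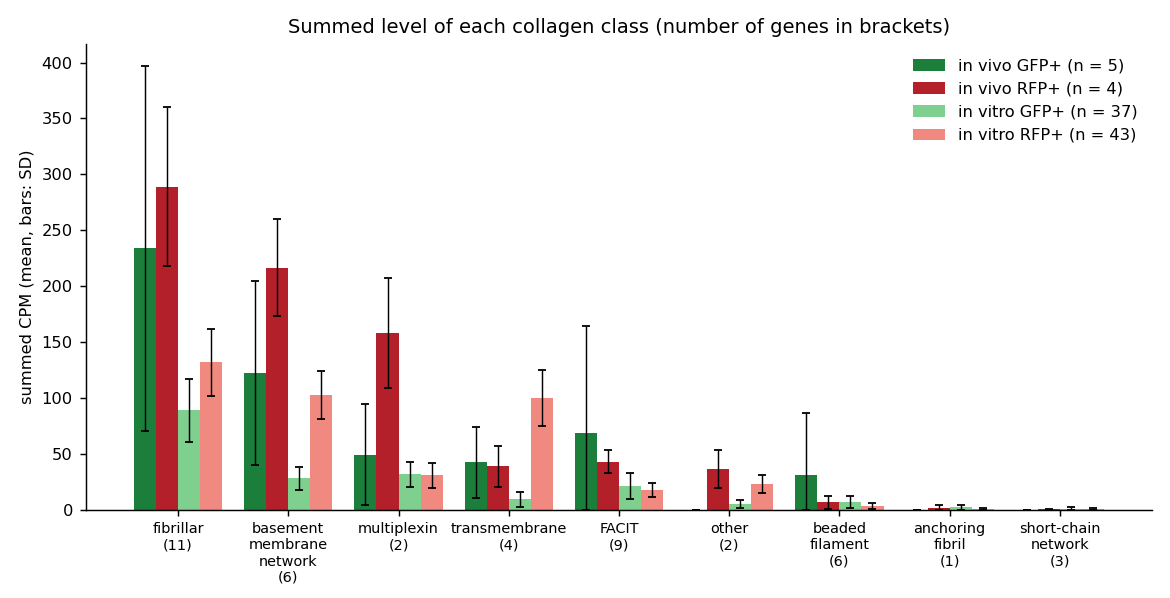
Summed CPM of each collagen class (mean; bars are SD, drawn no lower than 0) in the 4 groups, with the number of genes of the class in brackets. The transmembrane bar stands out in the in vitro RFP+ cells (99.9 CPM) and the multiplexin bar in the in vivo RFP+ cells (158 CPM), and the SD of the in vivo GFP+ cells is wide in every class with reads.

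Levels of different genes were compared as CPM per kb of exon. In RFP+ cells in vivo Col18a1 came first with 22.5 ± 7.04 CPM per kb (SD, n = 4), followed by Col4a1 with 20.0 ± 2.92 and Col2a1 with 10.5 ± 2.86. The first 2 lay within 1 SD of each other. In GFP+ cells in vivo Col2a1 came first with 12.8 ± 9.79 CPM per kb (SD, n = 5), then Col18a1 with 6.99 ± 6.45, Col4a1 with 6.55 ± 4.58, and Col6a1, a collagen VI chain, with 5.88 ± 13.2, all of it from well D12. These 4 lay within 1 SD of each other, and with well A12, B12, C12 or E12 left out Col6a1 was among the first 3. In RFP+ cells in vitro Col23a1 came first with 16.4 ± 4.30 CPM per kb (SD, n = 43), ahead of Col4a1 with 8.93 ± 2.24, Col2a1 with 8.02 ± 2.21 and Col18a1 with 4.33 ± 1.57. Col4a1 and Col2a1 lay within 1 SD of each other. In GFP+ cells in vitro Col18a1 came first with 4.48 ± 1.56 CPM per kb (SD, n = 37), ahead of Col1a2 with 2.08 ± 1.19, Col4a1 with 1.95 ± 1.07, Col1a1 with 1.88 ± 1.12 and Col3a1 with 1.86 ± 1.05. These last 4 lay within 1 SD of each other. With the longest transcript in place of all exons, the first gene of each group stayed first.

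**Figure D2:**
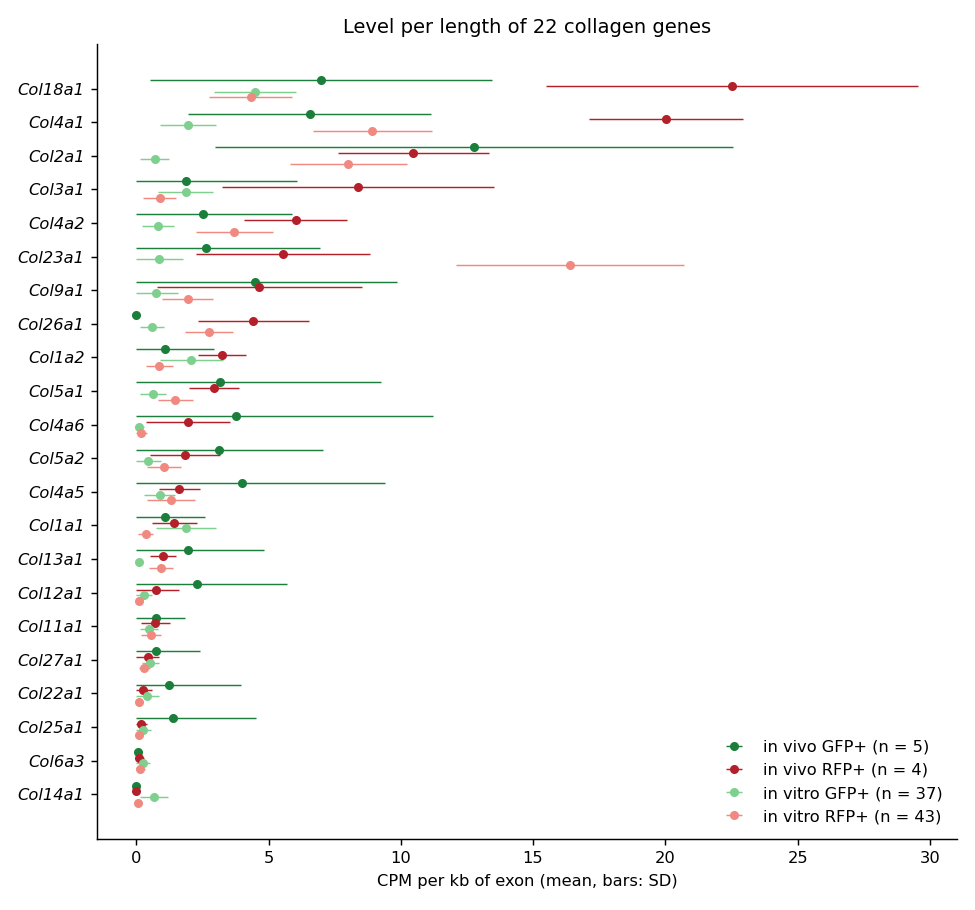
CPM per kb of exon (mean; bars are SD, drawn no lower than 0) of the 22 collagen genes tested in at least 1 comparison, ordered by their level in in vivo RFP+ cells. Col23a1 in the in vitro RFP+ cells (16.4 CPM per kb) lies far right of its level in the other 3 groups, and the dark green in vivo GFP+ bars reach 0 for most genes.

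In vivo, RFP+ cells were compared with GFP+ cells to ask which transcripts separate the second from the first heart field in the embryo. Of the 15 collagen genes with enough reads to test, only Col26a1 differed between the populations (edgeR, adjusted p under 0.1). Over all 8503 genes tested 10.1% differed, 6.21% as higher in RFP+ cells, so 1 of 15 is near that share. Col26a1 encodes collagen XXVI, a little-studied secreted collagen. It had 33.8, 45.5, 13.3 and 52.2 CPM in the 4 RFP+ libraries and no read in any of the 5 GFP+ libraries. The RFP+ mean was 14.5-fold a floor of 3 reads per GFP+ library, a limit that covers counting error only (edgeR, adjusted p = 0.0162). Col26a1 had enough reads to test only through the RFP+ libraries, so the direction of its test was set in advance.

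The ranges of the populations did not overlap for 3 of the 15 genes, Col26a1, Col4a1 and Col18a1, and all 3 were higher in RFP+ cells. Among all genes tested, 17.6% had ranges that did not overlap. Col4a1 had 93.6, 24.8, 27.5, 20.7 and 77.9 CPM in the GFP+ libraries and 149, 157, 120 and 172 CPM in the RFP+ libraries. Its log2 fold change was 1.55 ± 0.69 (SE), which did not pass the threshold (edgeR, adjusted p = 0.274). Col18a1, whose C-terminal fragment is endostatin, had 0, 98.2, 2.39, 80.2 and 64.5 CPM in the GFP+ libraries and 156, 127, 121 and 229 CPM in the RFP+ libraries. Its log2 fold change was 1.62 ± 1.11 (SE; edgeR, adjusted p = 0.606). The SE exceeded 1.4 on the log2 scale for 11 of the other 12 tested genes.

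Levels in the GFP+ libraries were often high in 1 or 2 libraries and 0 in the rest. Col3a1, a fibrillar collagen of soft tissues, had 92.4 CPM in the GFP+ library of well D12 and no read in the other 4, against 62.6, 96.6, 144 and 25.4 CPM in the RFP+ libraries. Without well D12 it was higher in RFP+ cells (edgeR, adjusted p = 0.0154), and with it the log2 fold change was 2.10 ± 1.86 (SE; adjusted p = 0.747). Col2a1, the chain of cartilage collagen, had 64.8, 231, 0, 176 and 119 CPM in GFP+ and 95.0, 95.2, 131 and 66.3 CPM in RFP+ cells, and the populations overlapped. Col1a2, a type I chain, had 0, 15.9, 52.6, 0 and 0 CPM in GFP+ and 31.7, 38.6, 56.7 and 34.6 CPM in RFP+ cells. Col1a1, the other type I chain, had reads in the GFP+ libraries of wells A12 and E12, whereas Col1a2 had reads in those of B12 and C12, so none of the GFP+ libraries held both chains. The Col1a1 mean was 7.12 ± 10.1 CPM (SD, n = 5) in GFP+ and 9.48 ± 5.61 CPM (SD, n = 4) in RFP+ cells.

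Per library, 5 to 16 of the 44 genes had a read in GFP+ cells and 19 to 29 in RFP+ cells. Relative to the genes detected, this was 0.732 to 2.08 collagen genes per 1000 in GFP+ and 1.85 to 2.34 per 1000 in RFP+ libraries. Only Col4a1 was read in all 5 GFP+ libraries, whereas 16 genes were read in all 4 RFP+ libraries. For 22 genes there was no read in any GFP+ library, and for 11 there was none in any RFP+ library. In pools of 10 cells, fewer cells expressing a gene and less RNA per cell cannot be told apart, and whether the lower number of genes detected in the GFP+ libraries played a part was not tested. Longer genes were read relatively more in GFP+ than in RFP+ libraries, with slopes of 0.028 to 0.26 against -0.207 to -0.1 on the log2 scale per doubling of exon length, and with this trend taken out Col26a1 was again the 1 gene called. Cardiomyocyte markers were higher in GFP+ cells for all 8 tested, and 3 of 5 endothelial markers were higher in RFP+ cells. Of these 3, Cd34 and Emcn had no read in GFP+ cells and were tested only through the RFP+ libraries. Their direction was thus set in advance. The 10 endothelial markers summed to 0 to 86.1 CPM in GFP+ cells, with Pecam1, Cdh5, Tie1, Emcn, Cd34 and Sox18 at 0, and to 78.4 to 405 CPM in RFP+ cells, with none at 0. The part of these cells in the collagen levels was not tested.

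**Figure D3:**
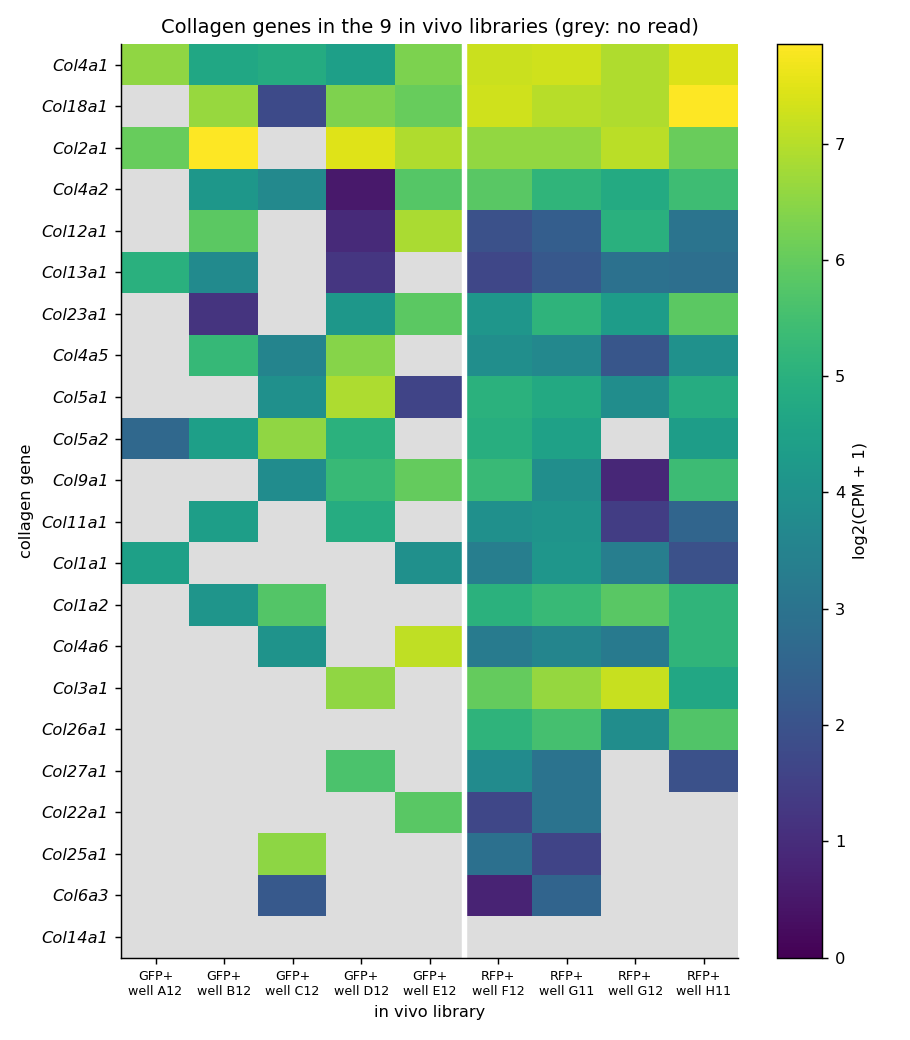
log2(CPM + 1) of the 22 tested collagen genes in each of the 9 in vivo libraries, with GFP+ libraries left of the white line, RFP+ libraries right of it and grey where a gene had no read. The RFP+ columns are filled for most genes, whereas in the GFP+ columns only Col4a1 has a value in all 5.

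In vitro, the same comparison asked which transcripts separate the populations formed in spheroids. Of 14 collagen genes tested, 9 were higher in RFP+ cells, 3 were higher in GFP+ cells and 2 did not pass the threshold. Of all 9967 genes tested 77.6% passed it, 37.5% as higher in RFP+ cells and 40.1% as higher in GFP+ cells, so the count of 12 of 14 is close to that of all genes. The median absolute log2 change was 1.33 over the 14 genes and 0.46 over all genes tested. Some of the 14 had enough reads to test only through the population where they were higher. This favors large changes and sets the direction of the call in advance. Examples are Col1a1, with a median of 1.98 CPM in RFP+ cells, and Col9a1, with 2.38 CPM in GFP+ cells. Others are Col23a1, Col2a1, Col4a2 and Col26a1, with medians of 3.80, 5.92, 4.80 and 4.04 CPM in GFP+ cells. The contrast in size with all genes is thus not read as a result. With DESeq2, which tests more of the low genes, 23 of 41 collagen genes passed, against 65.5% of all genes. The ranges of the populations did not overlap for Col23a1, Col2a1 and Col4a1, as for 3.24% of all genes tested. RFP+ wells were in plate columns 1 to 6 and GFP+ wells in columns 7 to 11, so plate position and population cannot be told apart.

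Col23a1 encodes a transmembrane collagen that can be shed from the cell surface. It ranged from 43.5 to 156 CPM with a median of 92.4 CPM in RFP+ cells, and from 0 to 22.4 CPM with a median of 3.80 CPM in GFP+ cells. The log2 fold change was 4.19 ± 0.20 (SE; edgeR, adjusted p = 4.65e-35), the largest of the collagen genes tested. Col23a1 had enough reads to test only through the RFP+ cells, so its direction was set in advance. Col13a1, another transmembrane collagen, found at the neuromuscular junction, had too few libraries above the filter on low counts to be tested. It had 4.32 ± 2.05 CPM (SD, n = 43) in RFP+ cells, with reads in 42 libraries, and 0.538 ± 0.720 CPM (SD, n = 37) in GFP+ cells, with reads in 16. Col25a1, a transmembrane collagen of neurons, had 1.34 ± 2.10 CPM in RFP+ and 3.33 ± 3.74 CPM in GFP+ cells, and it was not tested either.

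The 3 type IV chains with enough reads to test were higher in RFP+ cells. Col4a1 ranged from 39.1 to 115 CPM with a median of 64.8 CPM in RFP+ cells and from 3.96 to 37 CPM with a median of 12.8 CPM in GFP+ cells. Its log2 fold change was 2.16 ± 0.13 (SE; edgeR, adjusted p = 6.28e-28). Col4a2, its partner across the shared start site, ranged from 8.84 to 47.6 CPM with a median of 24.1 CPM in RFP+ cells and from 0 to 21.2 CPM with a median of 4.80 CPM in GFP+ cells. The ranges of Col4a2 overlapped, and its log2 fold change was 2.13 ± 0.18 (SE; adjusted p = 3.51e-19). Col4a5, a chain of the network found in kidney and smooth muscle, moved less, with a log2 fold change of 0.54 ± 0.25 (SE; adjusted p = 0.0398). That call was lost with limma voom (adjusted p = 0.127). The other 3 were low and not tested, with means in RFP+ and GFP+ cells of 0.318 and 0.453 CPM for Col4a3, 0.607 and 0.918 CPM for Col4a4, and 1.57 and 0.977 CPM for Col4a6.

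Fibrillar collagens moved in both directions. Col2a1 ranged from 31.4 to 115 CPM with a median of 72.3 CPM in RFP+ cells and from 0 to 22.3 CPM with a median of 5.92 CPM in GFP+ cells, a log2 fold change of 3.52 ± 0.18 (SE; edgeR, adjusted p = 7.46e-33). Col5a1 and Col5a2 encode the chains of type V collagen, which starts type I fibrils. They were higher in RFP+ cells by 1.20 ± 0.21 and 1.21 ± 0.30 on the log2 scale (SE; adjusted p = 3.72e-07 and 0.000176). Col5a3, the third type V chain, was low and not tested, with 1.91 ± 2.88 CPM (SD, n = 37) in GFP+ cells, read in 21 libraries, and 0.178 ± 0.387 CPM (SD, n = 43) in RFP+ cells, read in 9. Type I and type III chains were lower in RFP+ cells. Col1a1 ranged from 2.02 to 33 CPM with a median of 10.3 CPM in GFP+ cells and from 0 to 9.31 CPM with a median of 1.98 CPM in RFP+ cells, a log2 fold change of -2.44 ± 0.24 (SE; adjusted p = 8.30e-16). Col1a2 ranged from 6.19 to 69.9 CPM with a median of 22.3 CPM in GFP+ cells and from 1.51 to 27.1 CPM with a median of 10.6 CPM in RFP+ cells, a log2 fold change of -1.26 ± 0.18 (SE; adjusted p = 1.33e-09). Col3a1 had medians of 17.3 CPM in GFP+ and 7.04 CPM in RFP+ cells, a log2 fold change of -1.06 ± 0.22 (SE; adjusted p = 1.13e-05). Both populations overlapped for all 3 of these genes, and the type I chains together had 38.1 ± 18.8 CPM (SD, n = 37) in GFP+ and 13.1 ± 6.60 CPM (SD, n = 43) in RFP+ cells.

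Col26a1 was higher in RFP+ cells in vitro as well, with a range of 7.04 to 36 CPM and a median of 22.7 CPM against 0 to 13.2 CPM and a median of 4.04 CPM in GFP+ cells. The log2 fold change was 2.19 ± 0.20 (SE; edgeR, adjusted p = 3.40e-17). In vitro too, Col26a1 had enough reads to test only through the RFP+ cells, so its direction was set in advance. Col9a1, a FACIT chain of cartilage, was higher by 1.39 ± 0.28 (SE; adjusted p = 4.61e-06). The genes that did not pass the threshold were Col11a1, a fibrillar chain that joins cartilage fibrils, at 0.22 ± 0.23 (SE; adjusted p = 0.403), and Col18a1 at -0.06 ± 0.11 (SE; adjusted p = 0.615). Col18a1 had medians of 29.0 CPM in RFP+ and 28.9 CPM in GFP+ cells. Col14a1, a FACIT collagen of tendon and skin, had too few libraries above the filter to be tested. It had 4.66 ± 3.65 CPM (SD, n = 37) in GFP+ cells, with reads in 34 libraries, and 0.465 ± 0.798 CPM (SD, n = 43) in RFP+ cells, with reads in 15.

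Other cell type markers moved with these groups. All 5 tested markers of surface ectoderm and 6 of 7 tested pluripotency markers were higher in GFP+ cells, beside Col1a1, Col1a2 and Col3a1. Beside the genes higher in RFP+ cells, the 8 somite and sclerotome markers summed to 55.1 to 201 CPM in RFP+ and 0.545 to 40.8 CPM in GFP+ cells, and all 5 tested were higher in RFP+ cells. The 7 notochord and node markers summed to 215 to 478 CPM in RFP+ and 16.5 to 158 CPM in GFP+ cells, and most of this was Sox9 and T. No marker of the somite or notochord lists was at 0 in either population. Sox9, which activates Col2a1 in cartilage, had 259 ± 55.2 CPM (SD, n = 43) in RFP+ and 33.5 ± 24.9 CPM (SD, n = 37) in GFP+ cells. The 14 markers of parietal and visceral endoderm, cells rich in type IV collagen, summed to 82.0 to 222 CPM in RFP+ and 4.29 to 57.7 CPM in GFP+ cells. Fabp1 was at 0 in GFP+ cells, and of 3 endoderm markers tested 2 were higher in RFP+ cells and 1 was not called. In vivo the same 14 summed to 151 to 313 CPM in RFP+ and 251 to 884 CPM in GFP+ cells. The part of any of these cells in the collagen levels was not tested.

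**Figure D4:**
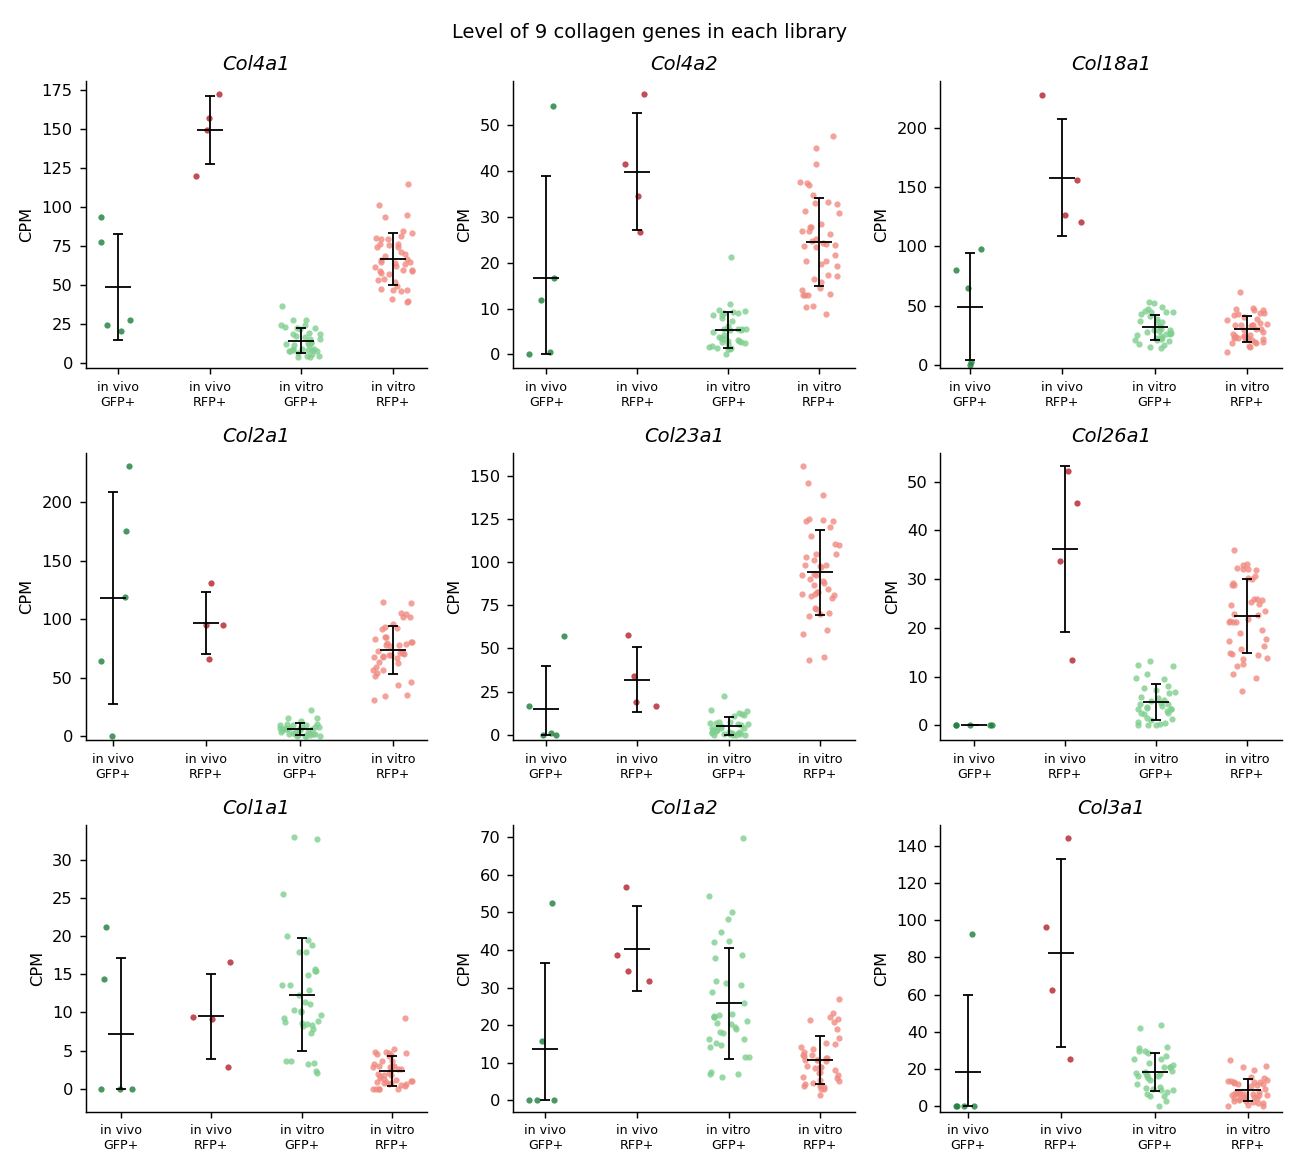
CPM of 9 collagen genes in every library (1 point each; lines are means, bars are SD, drawn no lower than 0) in the 4 groups. In vitro, the RFP+ points of Col4a1, Col2a1 and Col23a1 lie above all GFP+ points, Col1a1, Col1a2 and Col3a1 lean the other way, and Col18a1 is level.

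**Figure D5:**
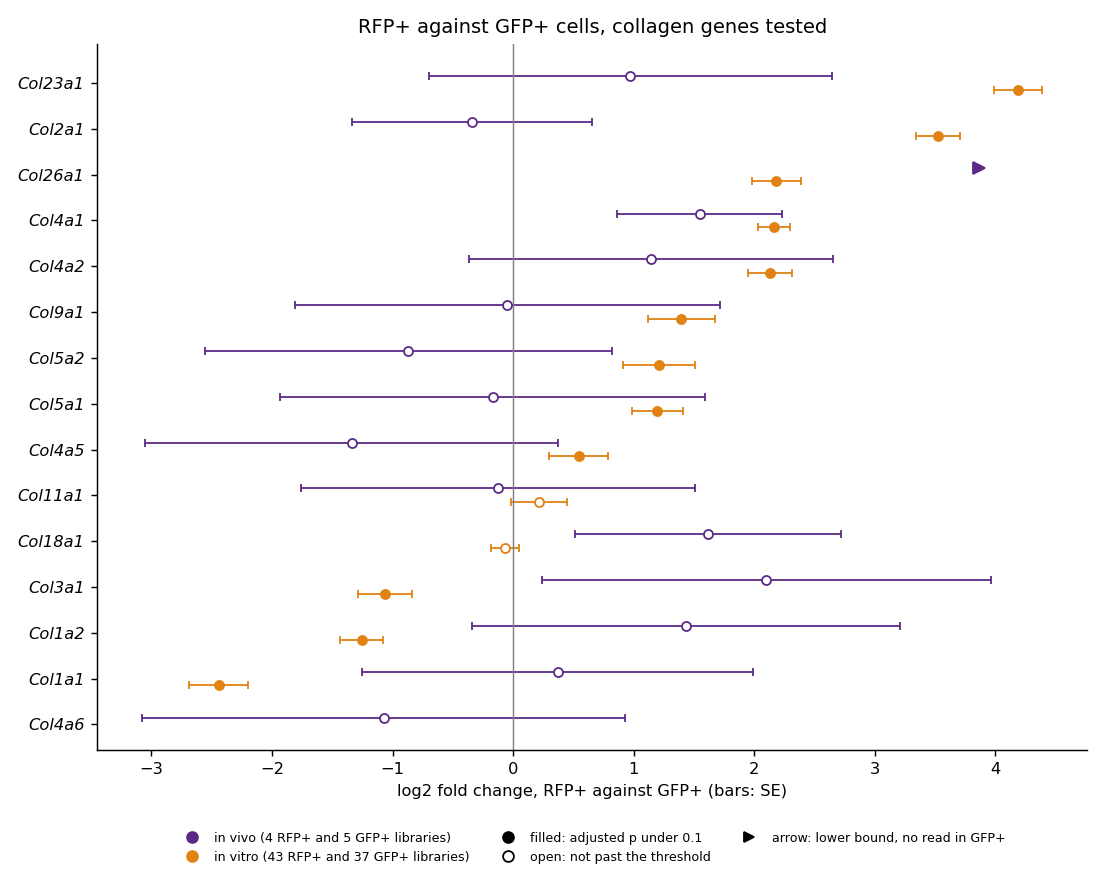
log2 fold change of RFP+ against GFP+ cells (points; bars are SE) for the collagen genes tested, in vivo and in vitro. Filled points passed an adjusted p of 0.1, and the arrow is the lower bound for Col26a1 in vivo, which covers counting error only. The in vitro bars are short, whereas those in vivo cross 0 for 11 of the 14 genes with a bar.

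GFP+ cells of spheroids were compared with GFP+ cells of embryos to ask how near the cultured cells were to their counterparts. Of 20 collagen genes tested, 3 were higher and 11 lower in vitro (edgeR), 14 in all. Of all 11953 genes tested 68.4% differed, 48.1% higher and 20.2% lower in vitro. The median log2 fold change was -1.55 over the 20 collagen genes and 0.65 over all genes tested, so the collagen genes lay lower than the typical gene. Setting the genes at 0 in vivo to their bounds could not move the first value, as these bounds lie above it. Ranges overlapped for all 20 collagen genes, whereas 16.0% of all genes tested had ranges that did not overlap. Col2a1 was lowest, with a median of 119 CPM in vivo, where well C12 had no read, and 5.92 CPM in vitro. Its log2 fold change was -4.13 ± 0.46 (SE; edgeR, adjusted p = 1.04e-10). It was lower in vitro with every in vivo library left out in turn and with limma voom (adjusted p = 0.00242), the only collagen gene that this method called. Fewer calls were made by limma voom over all genes as well, 2413 in place of 8171. Markers of other cell types differed beside these genes: all 8 cardiomyocyte markers tested were lower in vitro, and all 8 pluripotency and all 5 surface ectoderm markers tested were higher. In the embryo GFP+ libraries the 8 pluripotency markers summed to 0 to 0.419 CPM, with 7 of them at 0, and the 8 surface ectoderm markers to 277 to 483 CPM, with Krt5, Krt14, Trp63, Epcam, Cdh1 and Grhl2 at 0. Markers at 0 in the embryo could enter the test only through the in vitro libraries, so their direction was set in advance. The part of cells with any of these markers in the collagen levels was not tested.

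The other genes lower in vitro differed in how far they rested on single embryo libraries. Col4a1 fell by 1.65 ± 0.35 on the log2 scale (SE; edgeR, adjusted p = 7.14e-05), Col9a1 fell by 2.54 ± 0.72 and Col5a2 fell by 2.72 ± 0.70. Col12a1, a FACIT collagen of tendon and muscle, fell by 2.94 ± 0.71 (SE; adjusted p = 0.000335). These 4 calls held with each embryo library left out. Col4a2 fell by 1.56 ± 0.55 (SE; adjusted p = 0.0112), but without well E12 only by 0.40 (adjusted p = 0.593), and Col4a5 fell by 2.10 ± 0.55 (SE; adjusted p = 0.00087), but without well D12 by 1.04 (adjusted p = 0.152). Col5a1 fell by 2.25 ± 0.59 (SE; adjusted p = 0.000916) and stood at 0.52 without D12. Col23a1 fell by 1.54 ± 0.74 (SE; adjusted p = 0.0633) and stood at 0.11 without E12. Col25a1 and Col22a1, a FACIT collagen of tissue junctions, each had reads in 1 embryo library. They fell by 2.31 ± 0.83 and 1.55 ± 0.83 (SE; adjusted p = 0.0134 and 0.0964) and stood at 5.71 without C12 and 5.81 without E12, values that depend on the prior count because no embryo read was then left.

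The 3 genes called higher in vitro were low or absent in the embryo. They had enough reads to test only through the in vitro libraries, so the direction of these calls was set in advance. Col14a1 and Col26a1 had no read in the 5 embryo GFP+ libraries and averaged 4.66 and 4.77 CPM in vitro (edgeR, adjusted p = 5.57e-05 and 6.16e-05). These means were 1.87-fold and 1.91-fold a floor of 3 reads per embryo library, a limit that covers counting error only. Col6a3, a chain of the beaded filament collagen VI, had reads in 1 embryo library, and its log2 fold change was 2.40 ± 1.28 (SE; adjusted p = 0.0766). The call was lost when any embryo library but C12 was left out, with adjusted p from 0.152 to 0.181, and with the size factors of DESeq2 (0.112), total counts (0.103), no filter (0.106) and limma voom (0.602). The 6 genes not called were Col3a1 at 0.02 ± 0.66, Col11a1 at -0.63 ± 0.64, Col27a1 at -0.46 ± 0.66, Col1a2 at 1.02 ± 0.61, Col18a1 at -0.59 ± 0.39 and Col1a1 at 0.95 ± 0.65 (log2, SE). Col27a1 is a fibrillar collagen of cartilage, and well D12 was the only embryo GFP+ library with reads of it. Without D12, Col3a1 and Col27a1 were higher in vitro, by 8.1 and 6.70 on the log2 scale (adjusted p = 1.72e-07 and 9.53e-06), with no read in the other 4 embryo libraries, so these values depend on the prior count. Col1a2 was higher in vitro without C12 (2.52; adjusted p = 0.00134). Col1a1 was higher in vitro without A12 or E12 (1.90 and 1.44; adjusted p = 0.026 and 0.0824). Col18a1 was lower in vitro without A12 or C12 (-0.97 and -0.91; adjusted p = 0.00868 and 0.0262), with DESeq2 (-0.74; adjusted p = 0.0723) and with its size factors in edgeR (-0.74; adjusted p = 0.0876), and stood at 0.34 with limma voom (adjusted p = 0.777).

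RFP+ cells of spheroids were compared with RFP+ cells of embryos in the same way. Of 17 collagen genes tested, 1 was higher and 10 were lower in vitro (edgeR), 11 in all. Of all 11127 genes tested 42.1% differed, 21.9% higher and 20.2% lower in vitro. The median log2 fold change was -0.84 over the 17 genes and 0.04 over all genes. Ranges did not overlap for 5 genes, Col1a2, Col3a1, Col4a1, Col4a6 and Col18a1, which were all lower in vitro, against 4.69% of all genes tested. Col18a1 was at 121 to 229 CPM in vivo and 10.6 to 61.2 CPM in vitro, a log2 fold change of -2.39 ± 0.20 (SE; adjusted p = 2.65e-15). Col4a6, the partner chain of Col4a5, was at 8.34 to 34.6 CPM in vivo and 0 to 6.34 CPM in vitro, a log2 fold change of -3.28 ± 0.62 (SE; adjusted p = 2.15e-05). Col4a6 had enough reads to test only through the embryo libraries, so the direction of its test was set in advance. Col3a1 was at 25.4 to 144 CPM in vivo and 0 to 24.7 CPM in vitro, a log2 fold change of -3.23 ± 0.37 (SE; adjusted p = 1.68e-10).

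The type I chains were also lower in vitro in RFP+ cells. Col1a2 fell by 1.91 ± 0.34 and Col1a1 fell by 2.05 ± 0.59 on the log2 scale (SE; edgeR, adjusted p = 1.04e-05 and 0.0043). Col4a1 fell by 1.20 ± 0.16 (SE; adjusted p = 1.49e-08), Col5a1 fell by 1.01 ± 0.33 (adjusted p = 0.0133) and Col9a1 fell by 1.29 ± 0.38 (adjusted p = 0.0052). Col4a2 fell by 0.73 ± 0.27 and Col26a1 fell by 0.72 ± 0.26 (SE; adjusted p = 0.0318 and 0.0268). The calls of Col4a2 without F12 (adjusted p = 0.236), of Col26a1 without G11 or H11 (0.146 and 0.222) and of Col9a1 without F12 or H11 (0.101 and 0.124) were lost. Col23a1 was the 1 gene higher in vitro, at 43.5 to 156 CPM against 16.5, 33.8, 19.2 and 57.8 CPM in the embryo libraries, a log2 fold change of 1.53 ± 0.24 (SE; adjusted p = 9.74e-07). Col2a1 was at 66.3 to 131 CPM in vivo and 31.4 to 115 CPM in vitro, and its log2 fold change of -0.41 ± 0.20 (SE; adjusted p = 0.102) just missed the threshold. It passed with DESeq2 (adjusted p = 0.0938), with the size factors of DESeq2 in edgeR (0.0771), with the length trend taken out (0.0358) and without H11 (0.0458), with log2 fold changes from -0.56 to -0.44. Col5a2 at -0.84 ± 0.46, Col11a1 at -0.38 ± 0.50, Col27a1 at -0.53 ± 0.63, Col4a5 at -0.33 ± 0.53 and Col13a1 at -0.14 ± 0.50 (SE) did not pass either, and Col5a2 passed without G12 (-1.22; adjusted p = 0.032). The 10 cardiomyocyte markers were higher in the embryo for all 7 tested in this comparison, and 7 of 8 endothelial markers tested were too. In spheroids 5 of 7 pluripotency, 3 of 4 notochord and 2 of 5 somite markers tested were higher, with 0 lower. Of the 8 pluripotency markers 4 had no read in these embryo libraries, so where tested their direction was set in advance. Lower were 3 of 6 endoderm, 2 of 5 surface ectoderm and 1 of 2 neural crest markers, and 1 endoderm marker was higher. The part of these cells in the collagen levels was not tested.

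Whether the difference between RFP+ and GFP+ cells was itself unequal in vitro and in vivo was tested from both log2 fold changes and their SE. None of the 14 collagen genes tested passed, against 5.11% of all 8185 genes tested, and 2 had an unadjusted p under 0.05. These were Col2a1 with a difference of 3.86 ± 1.01 (SE; adjusted p = 0.117) and Col26a1 with an adjusted p of 0.141. In 1 edgeR fit over the 4 groups, which assumes equal spread in them, 10 of 22 genes passed, against 54.2% of all genes. The 2 forms of the test differ in how they treat the wide spread of the in vivo GFP+ libraries.

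Pairs of chains that assemble with each other were compared across wells where both had a mean of at least 10 CPM, which left 3 pairs in 1 in vitro group each. Col1a1 and Col1a2 were positively correlated across the 37 GFP+ wells, with Pearson's r = 0.449 (permutation p = 0.0054, adjusted 0.0162) and Spearman's rho = 0.377 (permutation p = 0.022, adjusted 0.066) after adding a prior count of 2 and taking log2 CPM. Without the 2 wells farthest from the median of Col1a1, r was 0.404, and with the total count of the well taken out r was 0.371 (permutation p = 0.025, adjusted 0.075) and rho was 0.307 (permutation p = 0.065, adjusted 0.195), so that rho no longer passed. Col4a1 and Col4a2 had r = 0.124 and rho = 0.0855 across the 43 RFP+ wells (permutation p = 0.43 and 0.58), and r was -0.01 without the 2 farthest wells. Col5a1 and Col5a2 had r = -0.126 and rho = -0.109 (permutation p = 0.42 and 0.49), and r was -0.22 without the 2 farthest wells. The adjusted values were 0.43 for both r and 0.58 for both rho.

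The pooled levels of partner chains were also compared as ratios. Per kb of exon, the level of Col4a1 was 2.49 and 3.31 times that of Col4a2 in GFP+ and RFP+ cells in vivo, and 2.23 and 2.41 times in vitro. For the other type IV pair the ratio differed more, as Col4a5 was 2.37 and 0.832 times Col4a6 in vivo and 6.16 and 6.77 times in vitro. No in vivo GFP+ library held 10 reads of both these chains, so 2.37 mostly sets reads of some wells against reads of others. In vitro, 2 of 37 GFP+ and 2 of 43 RFP+ libraries held that many of both. Col5a1 was 1.41 to 1.56 times Col5a2 in the 4 groups. Col1a1 was 0.785 and 0.454 times Col1a2 in GFP+ and RFP+ cells in vivo, and 0.93 and 0.356 times in vitro. With the longest transcript as length, the in vitro ratios were 0.443 and 0.17. Both type I chains had 10 reads in no in vivo GFP+ library and in 2 of 43 in vitro RFP+ libraries. Col2a1 was 1.42 times Col11a1 in GFP+ cells in vitro and from 13.8 to 14.3 times in the other 3 groups. Differences between these pooled ratios were not tested.

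Genes that modify, export and receive collagen were counted next. Of 18 genes for modification and folding of chains, 13 were tested between the populations, and RFP+ cells had 0 higher and 1 lower in vivo and 8 higher and 3 lower in vitro. Against the 10.1% and 77.6% of all genes called in vivo and in vitro, 1 of 13 and 11 of 13 are near the background. This list had a median log2 fold change of -0.61 in the embryo and 0.39 in spheroids, against 0.09 and -0.02 over all genes. P4ha1, a catalytic subunit of prolyl 4-hydroxylase, had 345 ± 144 CPM (SD, n = 5) in GFP+ and 116 ± 28.2 CPM (SD, n = 4) in RFP+ cells in vivo, and 32 ± 12.8 CPM (SD, n = 37) and 63.2 ± 17.9 CPM (SD, n = 43) in vitro. It was lower in RFP+ cells in vivo by 1.65 ± 0.41 on the log2 scale and higher in vitro by 0.98 ± 0.11 (SE; edgeR, adjusted p = 0.0219 and 2.63e-13), and the difference of both passed its test (2.63 ± 0.42; adjusted p = 0.0325).

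The other enzymes and chaperones gave no single direction. P4ha2, the alternative catalytic subunit, had 38.6 ± 64.8 and 64.6 ± 7.58 CPM in GFP+ and RFP+ cells in vivo, with no call (adjusted p = 0.951), and was lower in RFP+ cells in vitro by 1.18 ± 0.17 (SE; adjusted p = 1.19e-09). P4hb, the shared subunit and a protein disulfide isomerase, was higher in RFP+ cells in vitro by 0.49 ± 0.05 (adjusted p = 4.84e-17), and so was Serpinh1, the collagen chaperone HSP47, by 0.39 ± 0.08 (adjusted p = 8.94e-06). In vivo their log2 fold changes were -0.61 ± 0.21 and -1.13 ± 0.51 (SE; adjusted p = 0.127 and 0.292). Plod2, a lysyl hydroxylase, was lower in RFP+ cells in vitro (-0.70 ± 0.08; adjusted p = 2.04e-13) and stood at -1.11 ± 0.61 in vivo (adjusted p = 0.451). In spheroids, all of P4ha1, P4hb, Serpinh1 and Plod2 were lower than in the embryo in GFP+ cells (-3.37, -1.97, -1.83 and -0.69 on the log2 scale) and in RFP+ cells (-0.90, -1.03, -0.44 and -0.42), each past the threshold.

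Of 20 genes for export, trimming and cross-linking, 11 were tested, with 0 higher and 2 lower in RFP+ cells in vivo and 5 higher and 4 lower in vitro, against the same 10.1% and 77.6% of all genes. Sparc, a matrix protein that binds collagen, had 569 ± 169 CPM (SD, n = 5) in GFP+ and 206 ± 51.3 CPM (SD, n = 4) in RFP+ cells in vivo, and 254 ± 53.2 and 68.7 ± 18.2 CPM in vitro. It was lower in RFP+ cells by 1.53 ± 0.32 in vivo and by 1.91 ± 0.07 in vitro on the log2 scale (SE; edgeR, adjusted p = 0.0106 and 6.65e-41). Sec23a, a coat protein needed to export procollagen, was lower in RFP+ cells by 1.60 ± 0.49 in vivo and by 0.54 ± 0.07 in vitro (adjusted p = 0.0711 and 4.25e-12). Lox, the lysyl oxidase that cross-links fibrils, had no read in any in vivo library and means under 0.3 CPM in vitro.

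Among 15 basement membrane partners of type IV collagen, 1 was higher and 1 lower in RFP+ cells in vivo of 8 tested, and 4 were higher and 2 lower in vitro of 7 tested, against 10.1% and 77.6% of all genes called. Nid2, which links laminin to type IV collagen, had 215 ± 126 CPM (SD, n = 5) in GFP+ and 46.9 ± 11.6 CPM (SD, n = 4) in RFP+ cells in vivo, but 12.8 ± 6.28 and 41.1 ± 9.94 CPM in vitro. Its log2 fold change was -2.26 ± 0.60 in vivo and 1.63 ± 0.13 in vitro (SE; edgeR, adjusted p = 0.0325 and 1.33e-20), and the difference passed its test (3.90 ± 0.61; adjusted p = 0.0307). Lama5, a laminin chain, had no read in GFP+ cells in vivo and 9.17 to 28.8 CPM in RFP+ cells (adjusted p = 0.0125), and in vitro it was lower in RFP+ cells by 1.37 ± 0.16 (adjusted p = 2.77e-12). In vivo Lama5 had enough reads to test only through the RFP+ libraries, so the direction of that call was set in advance. Of 16 receptors and collagenases, 5 were tested in vivo with no call and 6 in vitro, of which 4 were higher and 2 lower in RFP+ cells, where 77.6% of all genes were called. Between sources, 0 of 16 tested modification genes were higher and 10 were lower in vitro in RFP+ cells, and 0 of 11 basement membrane partners were higher and 9 were lower, against 20.2% of all genes lower. In GFP+ cells 2 of 14 modification genes were higher and 10 lower in vitro, but 3 of 12 basement membrane partners were higher and 2 lower, against 48.1% of all genes higher and 20.2% lower.

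The other 22 collagen genes had too few reads to pass the filter of the edgeR fits in any comparison. In vivo, 20 of them had no read in GFP+ cells and 10 had none in RFP+ cells. The highest was Col6a1, a chain of collagen VI, whose 128.9 CPM in the GFP+ library of well D12 was its only value in that group, and which had reads in 3 of 4 RFP+ libraries with a mean of 3.99 CPM. In vitro all 22 had reads, with a highest mean of 2.19 CPM in GFP+ and 1.86 CPM in RFP+ cells, both for Col9a3, a FACIT chain that pairs with Col9a1. Exons of Col9a3 and Col4a3 overlap those of other genes over 6.07% and 5.65% of their length, so part of their reads is uncertain. Other collagen genes overlap over smaller shares, such as 3.39% for Col6a4 and 2.50% for Col5a1. Col17a1, the transmembrane collagen of hemidesmosomes in skin, had reads in 12 of 37 GFP+ and 8 of 43 RFP+ libraries in vitro and none in vivo. The limit that 0 reads allow, 3 reads of a library, averaged 2.49 CPM in GFP+ and 2.21 CPM in RFP+ libraries in vivo, so a gene with no read in a library may still be expressed below that level, and single reads were seen below it.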

How the data were processed

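RNA of 10-cell pools was amplified from poly(A) tails, fragmented and sequenced. The authors trimmed reads (Trimmomatic 0.36, minimum quality 35, minimum length 36), aligned them to mm10 (HISAT2 2.0.4) and counted them per gene (featureCounts 1.5.2), and they deposited raw counts of 93 libraries. Strand use was not given in the sources used here. There are no molecular identifiers, so limits cover counting error only.

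Groups came from the sample titles. A library of 6288 counts was left out. In 3 rows, the in vitro RFP+ wells of columns 3 and 4 differed by little more than sampling noise (chi-square per degree of freedom under 1.5, against 2.92 to 11.7 for other pairs of a row) and were summed as 1 sample. The other 4 such pairs (1.52 to 2.29) were kept apart. CPM were scaled with TMM over all libraries. Comparisons used edgeR 4.0.16 (R 4.3.3) on the libraries of both groups, with TMM, filterByExpr (minimum count 10), quasi-likelihood tests and Benjamini-Hochberg adjustment over all genes tested at 0.1, the study's threshold. DESeq2 1.42.0 and limma 3.58.1 were alternatives. The test of unequal differences used 7 degrees of freedom. Scripts were tested on simulated data. Lengths came from GENCODE M21, which holds 96.79% of the symbols and all 44 collagen genes, and sequences from RefSeq (GRCm38.p6).

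All collagen genes tested in at least 1 comparison are named, and from the other lists 7 set genes and those called between the populations both in vivo and in vitro. The members and lists were chosen with earlier results of these data known.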

Additional observations from a re-analysis of the deposited data

Results flagged for a closer look

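In groups of 4 or 5 in vivo libraries, the highest and lowest values were compared with the others. The gap to the nearest value, as a share of the range, was set against Dixon's critical value. Chance passes it in about 1 of 20 groups of normally distributed values, a rate that does not hold for groups with many values of 0. A gene read in 1 library of its group always passes, as Col3a1, Col6a3, Col22a1, Col25a1 and Col27a1 did in GFP+ cells. Of 41 combinations of a tested collagen gene and an in vivo group, 10 held a library far from the rest.

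In GFP+ cells this was well D12 for Col3a1 (92.4 CPM), Col5a1 (118 CPM) and Col27a1 (48.2 CPM), well E12 for Col4a6 (135 CPM) and Col22a1 (56.3 CPM), and well C12 for Col6a3 (3.59 CPM) and Col25a1 (90.9 CPM). In RFP+ cells it was well G11 for Col6a3 (4.83 CPM), well G12 for Col12a1 (30.8 CPM) and well H11 for Col4a6 (34.6 CPM). The far library was the highest of its group in all 10.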

How the results depend on the processing

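With 4 or 5 wells per in vivo group and many genes at 0 in most of them, single libraries set many of the in vivo values. A gene with no read in a library may still be expressed at up to the level of 3 reads. No paired analysis was possible because the labels give no number that ties a well of one group to a well of another. Wells of columns 3 and 4 as 7 summed pairs were tried after seeing the data, and the counts of collagen calls were then 12 of 14 in vitro and 11 of 17 for RFP+ cells between sources, as before. All the settings tried gave values, but DESeq2 gave none for genes it filtered out. Where a result below did not hold, the cause was not tested, except that fits without the filter took in more genes.

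In vivo, between the populations, the count of collagen genes called was 1 in the reported fit, 2 without the filter, 4 with limma voom, and from 1 to 2 with each library left out. The count over all genes was 858, and it was 1945 with DESeq2, 2000 without the filter and 2271 with limma voom. In vitro, 12 collagen genes became 23 of 41 with DESeq2 and 28 of 44 without the filter, which called 12960 genes in all in place of 7736. Between sources, the 14 calls of GFP+ cells became 32 of 44 without the filter and 1 with limma voom, which called 2413 genes in all. The 11 calls of RFP+ cells became 7 with limma voom, which called 2115 genes in all in place of 4688. For the difference of the populations between sources, 1 edgeR fit over the 4 groups called 10 collagen genes in place of 0 and 6866 genes in all in place of 418. With each library left out, from 13 to 17 calls were made for GFP+ and from 9 to 12 for RFP+ cells between sources.

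The median log2 fold change of all genes in vivo was 0.09 with TMM, -0.04 with the size factors of DESeq2 and 0.12 with total counts. For GFP+ cells between sources it was 0.65, 0.47 and 0.55.

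Values that changed sign were as follows, on the log2 scale. In vivo, Col9a1 (-0.05) was at 0.070 without the filter, 1.18 with limma voom and 0.054 with the length trend taken out, and from -0.43 to 0.80 with each library left out. Col5a1 (-0.17) was at 2.73 with limma voom and 0.22 with the length trend out, Col11a1 (-0.12) at 1.88 and 0.38, and Col2a1 (-0.34) at 0.11 and 0.015. Col4a6 (-1.07) was at 2.03 and Col4a5 at 0.71 with limma voom. With each library left out, Col5a1 ranged from -0.49 to 2.46, Col11a1 from -0.49 to 0.24, Col2a1 from -0.66 to 0.077, Col4a6 from -1.79 to 1.91, Col5a2 from -1.22 to 0.26 and Col1a1 from -0.029 to 1.30.

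For GFP+ cells between sources, Col3a1 (0.02) was at -0.10 with the size factors of DESeq2, -0.054 with total counts and -0.0058 without the filter, and from -0.36 to 8.1 with each library left out. With limma voom, Col5a1 was at 0.36, Col11a1 at 0.20, Col25a1 at 1.39, Col27a1 at 2.07, Col4a2 at 0.10, Col18a1 at 0.34 and Col22a1 at 1.62. With each library left out, Col5a1 ranged from -2.63 to 0.52, Col11a1 from -0.99 to 0.18, Col25a1 from -2.78 to 5.71, Col27a1 from -0.85 to 6.70, Col23a1 from -1.94 to 0.11 and Col22a1 from -1.97 to 5.81. For RFP+ cells between sources, Col11a1 ranged from -0.70 to 0.031, Col27a1 from -0.91 to 0.27 and Col13a1 from -0.36 to 0.095.

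Of the remaining values for single collagen genes, those with the direction and side of the threshold of the reported fit numbered 210 in vivo, 153 in vitro, 203 for GFP+ and 220 for RFP+ cells between sources and 5 for the difference. Calls lost numbered 24 for GFP+ and 9 for RFP+ cells between sources and 1 in vitro, and calls gained numbered 4 in vivo, 9 for GFP+ and 5 for RFP+ cells between sources and 9 for the difference.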
